A study of Mus musculus with 22 samples.

Results

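The earliest sampling of a celastrol time course was examined: the hypothalamus 6 h after the start of treatment, 4 arrays from celastrol-treated mice against 4 arrays from vehicle-treated mice, chosen by their titles from 22 arrays. All 20228 probe sets with exactly 1 gene symbol (18704 genes) out of 23492 were tested, dim ones included. The mice of every group were lean male C57BL/6J animals, 8 weeks old, kept on normal chow for 2 weeks and injected into the peritoneum. At 6 h the controls had received the vehicle, dimethyl sulfoxide (DMSO), and the treated mice celastrol at 250 µg per kg. A vehicle volume of 25 µl per day is recorded for both groups. Separate mice were taken at 1 day and 4 days (4 DMSO and 3 celastrol arrays at each), and the labels do not tie a dose per kg to those later groups. The labels call the arrays of a group biological replicates and carry no genotype, so no group is described by one.

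Celastrol is a triterpenoid quinone methide from the thunder god vine. In cultured cells it is known to activate heat shock factor 1 and NRF2 and to inhibit the proteasome and NF-kB signalling, and in obese mice it lowers food intake, an action linked to leptin sensitivity. The hypothalamus holds the neurons that read leptin: the leptin receptor acts through JAK2 and STAT3, STAT3 switches on Socs3 as a brake, and Pomc and Npy neurons carry the signal on to feeding circuits. Members of the interleukin-6 receptor family, such as the oncostatin M receptor, use the same STAT3 branch. Lean mice are the setting here, so the comparison asks what the compound does to hypothalamic RNA within hours in animals that are not obese.

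No gene passed the test at 6 h. The linear model with 6 group means, fitted with limma to all 22 arrays, called 0 of 20228 probe sets at a Benjamini-Hochberg adjusted p under 0.05 (0.0%), and the lowest adjusted p was 0.998. At an unadjusted p under 0.05 there were 795 probe sets (3.93%), of which 457 were higher and 338 lower with celastrol, where 5% of the probe sets tested would be 1011. Differences were small: the median over all probe sets was 0.003 on the log2 scale, the 95th percentile of the absolute difference was 0.149, 7 probe sets differed by more than 0.5 and 3 by more than 1. The median standard error was 0.0675, so a typical 95% interval reached 0.14 to either side of its estimate. In 300 probe sets (1.48%) the 4 celastrol arrays all lay above the 4 DMSO arrays, and in 237 (1.17%) they all lay below. Labels exchanged at random among these arrays give each of these orders in 1 of 70 arrangements, so many genes without overlap arise by chance. The direction of small differences moved with brightness. Of the 10575 bright probe sets, those exceeding the median of the array in 3 or more of the 22, 65.3% were higher with celastrol (median 0.020), against 52.1% of all. It also moved with scaling: centring each array on its median gave 320 higher and 505 lower at an unadjusted p under 0.05, and a further quantile normalization gave 422 and 415.

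**Figure D1:**
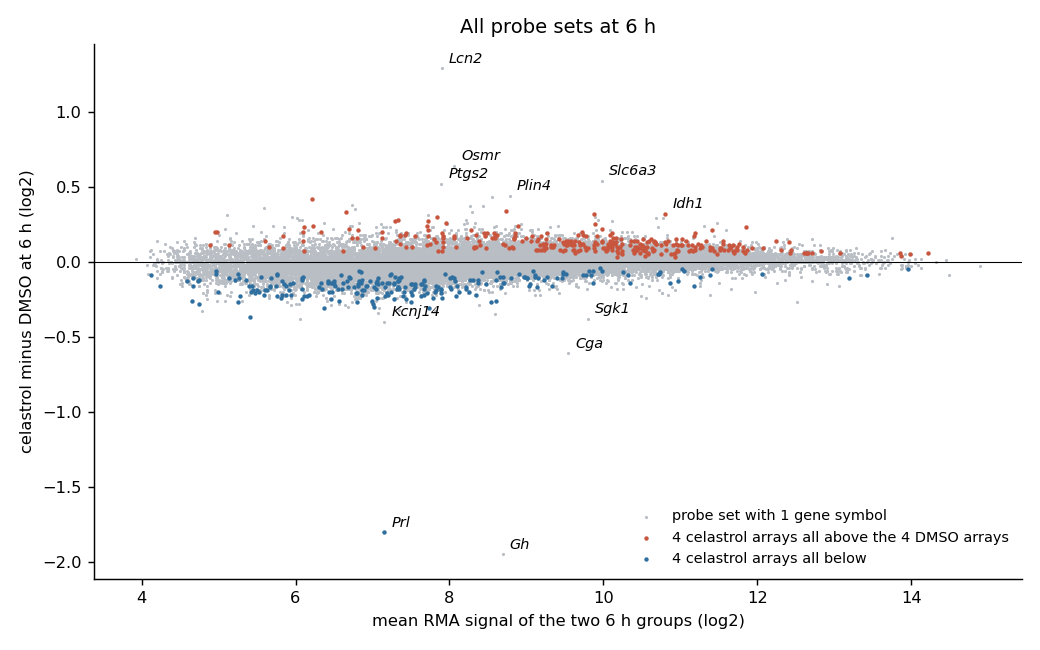
Difference between celastrol and DMSO at 6 h (log2, vertical) against the mean RMA signal of the 8 arrays (log2, horizontal) for 20228 probe sets, grey points; red and blue mark the 300 and 237 probe sets whose groups did not overlap. Most points lie close to 0, and few stand out: Lcn2, Osmr, Slc6a3 and Ptgs2 above, Gh, Prl and Cga below.

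The tissue label was checked against marker genes. All 18 measured neuron markers were bright in that sense, as were 22 of 31 transcription factors and peptides of hypothalamic nuclei. Of the choroid plexus markers 1 of 11 measured was bright. Of the blood markers 0 of 7 were, and only these 7 of 16 listed were measured. The choroid plexus gene Ttr lay between 7.32 and 7.62 in all 8 arrays at 6 h. The array medians of the tested probe sets lay between 8.64 and 8.70, and the mean correlation with the other arrays of the group between 0.996 and 0.998. The pituitary, which hangs from the hypothalamus, was uneven, as described next.

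The 2 genes furthest below DMSO were pituitary hormones. Gh, growth hormone, read 7.60, 10.57, 9.02 and 11.48 in DMSO replicates 1 to 4 and 7.87, 7.67, 7.57 and 7.74 in the celastrol arrays. Prl, prolactin, read 6.60, 7.15, 7.46 and 11 with DMSO and 6.32, 6.45, 6.03 and 6.19 with celastrol. For Prl, DMSO replicate 4 was far above the other DMSO arrays, while for Gh the DMSO arrays were spread out, with replicate 4 highest and replicate 1 as low as celastrol. The difference was -1.95 ± 0.77 (SE) for Gh and -1.80 ± 0.81 for Prl, each with a limma adjusted p of 0.998; Gh was lower than the DMSO mean in 4 of 4 celastrol arrays and the Prl groups did not overlap. Without DMSO replicate 4 the Prl difference was -0.82 and the Gh difference was -1.35; without DMSO replicate 1 the Gh difference was -2.64.

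Other pituitary markers varied in the same DMSO array. Lhb, the luteinizing hormone beta chain, read 9.92 in DMSO replicate 4 against 8.22 to 8.67 in the other DMSO arrays and 8.30 to 8.59 with celastrol. Cga, the alpha chain shared by the glycoprotein hormones, spread widely in both groups, from 7.33 to 11.58 with DMSO and from 7.26 to 10.65 with celastrol, and its difference of -0.61 ± 1.01 turned to 0.052 without celastrol replicate 4. Tshb, the thyrotropin beta chain, lay between 5.84 and 6.19 in every array. Of 11 measured pituitary markers 1 was higher with celastrol (median -0.152 against 0.003 for all probe sets), 3 had an unadjusted p under 0.05 and 0 passed. The summed linear level of the 11 ranged from 9110 to 18700 with DMSO and from 8850 to 10700 with celastrol. The list's median was -0.054 without DMSO replicate 4. In bulk tissue, less pituitary in a sample and less hormone RNA per cell cannot be told apart.

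**Figure D2:**
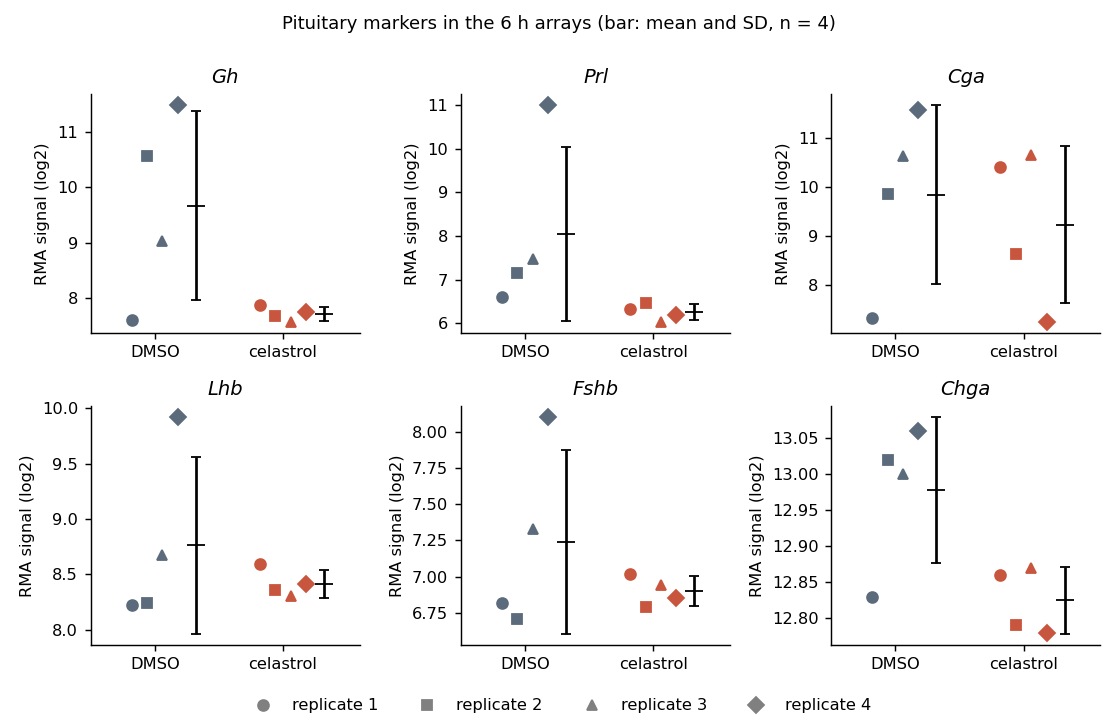
RMA signal (log2) of 6 pituitary markers in the 8 arrays at 6 h; marker shape gives the replicate number and the black bar the mean ± SD (n = 4 per group). Gh and Prl are low in all celastrol arrays and spread widely with DMSO, with replicate 4 highest; Cga spreads in both groups.

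Among the genes furthest above DMSO were several of cytokine signalling and inflammation. Osmr encodes the signalling chain of the oncostatin M receptor, Ptgs2 the inducible cyclooxygenase that starts prostaglandin synthesis, Lcn2 the secreted iron-siderophore carrier lipocalin 2, an acute phase protein, and Plin4 a coat protein of lipid droplets. Their promoters are shown, with that of the STAT3 target Socs3 for comparison. These are 4 of the 5 genes named for the largest positive differences, and in each celastrol replicate 1 lay inside the DMSO range. The other, Slc6a3 (0.54 ± 0.38), is not shown, and in it celastrol replicate 1 was the highest array (11). Each sequence is the 250 bases before the RefSeq start on GRCm38.p6, read 5′ to 3′ on the gene's strand. Capitals mark matches to 6 searched motifs.
Osmr (chr15:6874314-6874563, minus strand): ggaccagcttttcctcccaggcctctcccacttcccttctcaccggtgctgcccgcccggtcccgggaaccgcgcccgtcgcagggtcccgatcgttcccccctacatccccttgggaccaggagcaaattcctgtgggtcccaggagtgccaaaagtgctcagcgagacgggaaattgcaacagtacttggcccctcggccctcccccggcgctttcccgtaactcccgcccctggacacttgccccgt
Ptgs2 (chr1:150099781-150100030, plus strand): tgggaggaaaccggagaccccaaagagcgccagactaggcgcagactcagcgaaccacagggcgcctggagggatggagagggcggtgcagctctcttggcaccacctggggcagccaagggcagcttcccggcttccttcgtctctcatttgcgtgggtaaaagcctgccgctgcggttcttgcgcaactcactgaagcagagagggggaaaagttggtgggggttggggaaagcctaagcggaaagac
Lcn2 (chr2:32387740-32387989, minus strand): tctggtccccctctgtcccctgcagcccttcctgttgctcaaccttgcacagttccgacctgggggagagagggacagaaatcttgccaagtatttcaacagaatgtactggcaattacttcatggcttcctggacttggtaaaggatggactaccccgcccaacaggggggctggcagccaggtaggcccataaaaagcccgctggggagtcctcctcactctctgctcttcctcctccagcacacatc
Plin4 (chr17:56109783-56110032, minus strand): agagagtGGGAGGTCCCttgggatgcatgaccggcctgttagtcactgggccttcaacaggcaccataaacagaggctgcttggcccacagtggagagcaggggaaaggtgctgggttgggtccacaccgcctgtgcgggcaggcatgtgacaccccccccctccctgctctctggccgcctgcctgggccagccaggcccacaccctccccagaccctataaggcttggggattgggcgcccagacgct
Socs3 (chr11:117969367-117969616, minus strand): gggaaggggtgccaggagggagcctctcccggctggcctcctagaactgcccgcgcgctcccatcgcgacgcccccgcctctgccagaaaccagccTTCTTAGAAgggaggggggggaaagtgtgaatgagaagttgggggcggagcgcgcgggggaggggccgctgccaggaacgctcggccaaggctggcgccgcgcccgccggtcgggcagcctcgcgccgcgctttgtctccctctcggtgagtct

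The motifs were searched on both strands, and matches may overlap. They were the STAT site TTCNNNGAA, present in 7.02% of the 32851 windows of the same length in the RefSeq promoter table, the heat shock element GAANNTTC (6.69%), the antioxidant response element TGACNNNGC (10.2%), the cyclic AMP response element TGACGTCA (1.55%), the glucocorticoid receptor hexamer AGAACA (16.1%) and the NF-kB consensus (7.25%). Socs3 held 1 STAT match, TTCTTAGAA, starting 154 bases before its start. Plin4 held 1 NF-kB match, GGGAGGTCCC, starting 243 bases before its start. The Osmr, Ptgs2 and Lcn2 windows held no match to any of the 6, which says only that these letters are not in these windows.

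Osmr read 7.80, 7.72, 7.64 and 7.78 in DMSO replicates 1 to 4 and 7.77, 8.47, 8.83 and 8.42 in celastrol replicates 1 to 4. Ptgs2 read 7.64, 7.58, 7.75 and 7.55 with DMSO and 7.60, 8.19, 8.65 and 8.17 with celastrol. For both genes 3 celastrol arrays stood above every DMSO array and celastrol replicate 1 lay inside the DMSO range. The difference was 0.64 ± 0.17 (SE, 1.55-fold, 95% interval 0.28 to 0.99) for Osmr and 0.52 ± 0.16 (1.44-fold, 0.19 to 0.86) for Ptgs2. Neither passed: the limma adjusted p was 0.998 for each, the unadjusted p 0.00122 and 0.00380, and the exact two-sided permutation test over the 8 arrays gave 0.0857 for each, where 0.0286 is the smallest it can give. Without celastrol replicate 1 the differences were 0.84 and 0.71, with limma adjusted p of 0.263 and 0.431; over all alternatives the adjusted p reached 1.0 for both genes.

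Lcn2 read 6.67, 7.49, 7.47 and 7.38 with DMSO and 6.98, 10.48, 9.20 and 7.52 with celastrol. Celastrol replicates 2 and 3 were far above DMSO, replicate 4 was just above its highest array, and replicate 1 lay inside its range. The difference of 1.29 ± 0.58 (2.45-fold, 95% interval 0.09 to 2.49, limma adjusted p 0.998) was 0.65 without celastrol replicate 2 and 1.82 without celastrol replicate 1. Plin4 read 8.77, 8.35, 8.72 and 8.40 with DMSO and 8.46, 9.42, 8.98 and 9.15 with celastrol, again with replicate 1 inside the DMSO range. Its difference was 0.44 ± 0.17 (1.36-fold, limma adjusted p 0.998, exact permutation p 0.114), and 0.30 without celastrol replicate 2. So celastrol replicate 1 was inside the DMSO range in each of the 4 genes, and which celastrol array was highest differed among them. These 4 were named among the 5 with the largest positive difference, so their size is given as a description.

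**Figure D3:**
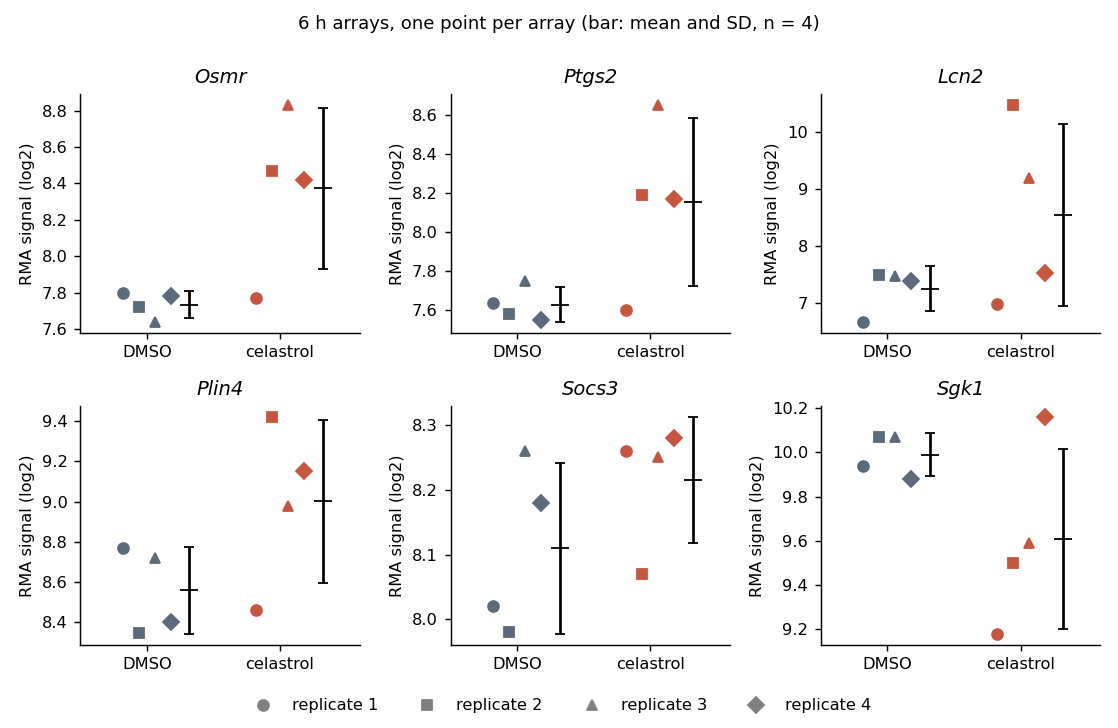
RMA signal (log2) of 6 genes in the 8 arrays at 6 h; marker shape gives the replicate number and the black bar the mean ± SD (n = 4 per group). In Osmr, Ptgs2, Lcn2 and Plin4 the circle, celastrol replicate 1, lies within the DMSO points while the other 3 celastrol arrays lie above them; Socs3 overlaps throughout, and Sgk1 is low in 3 celastrol arrays.

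The other inflammatory and acute phase genes differed little. Of 41 measured genes of the acute phase and of interleukin-1 and NF-kB signalling, 25 were higher with celastrol (61.0%, median 0.034), 6 had an unadjusted p under 0.05, all of them higher, and 0 passed. Besides Lcn2 and Ptgs2 the 6 were Il1a, the cytokine interleukin-1 alpha (0.29 ± 0.11), Ch25h, which makes 25-hydroxycholesterol (0.24 ± 0.11), Serpina3n, an astrocytic protease inhibitor (0.17 ± 0.07), and the complement gene C4b (0.17). Il1a read 6.02, 5.74, 5.88 and 5.88 with DMSO and 6.25, 6.10, 6.38 and 5.96 with celastrol, dim in every array and overlapping. The interleukin Il1b (0.05), Tnf (0.01), the chemokines Ccl2 (0.01) and Cxcl10 (0.03), and the serum amyloids Saa1 (-0.07) and Saa3 (0.06) lay close to 0. Nfkbia, which encodes the NF-kB inhibitor IkB alpha, was the lowest of the list (-0.15 ± 0.09). The list's median was -0.001 without DMSO replicate 2. In the interleukin-6 family list Osmr stood alone: 6 of 12 members were higher, the median was -0.005 (0.013 after a further quantile normalization), and 1 had an unadjusted p under 0.05. In the prostaglandin list 8 of 16 were higher, with a median of 0.001 (-0.012 after median centring), and apart from Ptgs2 no member had an unadjusted p under 0.05; the prostaglandin E receptor Ptger2 (0.11 ± 0.06) and the D2 receptor Ptgdr (-0.15 ± 0.09) came closest.

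Leptin signalling showed no gene that passed. Lepr, the leptin receptor, read 7.69, 7.99, 8.08 and 7.73 with DMSO and 7.57, 7.73, 8.15 and 7.97 with celastrol, overlapping fully, with a difference of -0.02 ± 0.13. Socs3 read 8.02, 7.98, 8.26 and 8.18 with DMSO and 8.26, 8.07, 8.25 and 8.28 with celastrol (0.11 ± 0.09, 95% interval -0.09 to 0.30), also overlapping; a second Socs3 probe set had the opposite sign. Stat3 (0.09 ± 0.06) and Ptpn1, the phosphatase that damps the leptin receptor (-0.03 ± 0.08), had intervals that included 0. Among STAT3-responsive genes the repressor Bcl6 read 9.02, 8.98, 9.17 and 8.98 with DMSO against 9.34, 9.17, 9.32 and 9.23 with celastrol (0.22 ± 0.09), where only the lowest celastrol array touched the highest DMSO array. Sbno2, a STAT3-induced co-regulator, read 8.43 to 8.45 with DMSO and 8.48 to 8.62 with celastrol, a difference of 0.09 ± 0.04 in groups that did not overlap. Of 26 members of the leptin and JAK-STAT3 list, 15 of them bright, 19 were higher (73.1%, median 0.057), against 52.1% of all and 65.3% of bright probe sets. An unadjusted p under 0.05 in limma was found in 3, all higher, against 3.93% of all probe sets, and 0 passed. The median was 0.034 without celastrol replicate 3. The count of 19 became 17 after a further quantile normalization and 18 after median centring.

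Feeding peptides did not separate the groups. Pomc, precursor of the appetite-lowering melanocortin, read 8.62, 8.76, 8.70 and 9.18 with DMSO and 8.75, 8.37, 8.98 and 8.71 with celastrol (-0.11 ± 0.13). Npy, which drives feeding, differed by 0.04 ± 0.15 and Cartpt, a companion of Pomc, by 0.03 ± 0.10, and leaving out 1 array turned the sign of each of the 3. Their 95% intervals, -0.39 to 0.16 for Pomc, -0.27 to 0.34 for Npy and -0.17 to 0.23 for Cartpt, bound what these 8 arrays could miss. The receptor Npy1r read 8.54, 8.55, 8.47 and 8.46 with DMSO and 8.63, 8.68, 8.74 and 8.67 with celastrol, without overlap (0.17 ± 0.08, unadjusted p 0.0501 in limma). The serotonin receptor Htr2c, whose loss causes overeating in mice, differed by 0.10 ± 0.05. Of 29 feeding peptides and receptors 18 were higher (median 0.018), 0 had an unadjusted p under 0.05 and 0 passed in limma. The interleukin-1 receptor Il1r1 and the feeding peptide Agrp were not analysed here.

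The stress pathways celastrol is known for in cell culture lay near the background. For heat shock factor 1, the inducible chaperone Hspa1a read 9.26, 9.32, 9.12 and 9.39 with DMSO and 9.35, 9.21, 9.48 and 9.30 with celastrol (0.06 ± 0.08), and its partner Dnajb1 9.38, 9.41, 9.38 and 9.47 against 9.51, 9.45, 9.50 and 9.57 (0.10 ± 0.07). Hspa1a overlapped fully and Dnajb1 in 1 array of each group. The upper 95% bound was 0.22 for Hspa1a and 0.24 for Dnajb1. Of 20 heat shock genes 12 were higher (median 0.035, and 0.008 without celastrol replicate 1), and 1, the HSP90 co-chaperone Chordc1 (0.20 ± 0.10), had an unadjusted p under 0.05. Hspa1b was not analysed here.

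NRF2 targets also differed by small amounts. Hmox1, heme oxygenase 1, read 8.21, 8.08, 8.16 and 8.26 with DMSO and 8.25, 8.16, 8.21 and 8.22 with celastrol (0.03 ± 0.06), and the quinone reductase Nqo1 differed by 0.09 ± 0.09. Of 31 NRF2 targets 18 were higher, with a median of 0.019 that became -0.001 after a further quantile normalization. The only member with an unadjusted p under 0.05 was Aox1, aldehyde oxidase 1, whose 4 celastrol arrays (7.67, 7.82, 7.84 and 7.78) all lay below DMSO (7.97, 8.08, 7.94 and 7.97), by -0.21 ± 0.08. In 3 of the 31 all 4 celastrol arrays lay above DMSO, against 1.48% of all probe sets and 2.18% of the bright ones. They were Nfe2l2, which encodes NRF2 (0.12 ± 0.08), Cbr1 (0.10 ± 0.06) and Sqstm1, the autophagy receptor p62 (0.06 ± 0.04). Of 30 unfolded protein response genes, 26 of them bright, 20 were higher (66.7%, median 0.031, and 0.012 without celastrol replicate 1), against 65.3% of all bright probe sets. The chaperone Hspa5 differed by 0.04 ± 0.05, the death-linked factor Ddit3 by -0.03 ± 0.05 and Creld2, secreted on endoplasmic reticulum stress, by 0.19 ± 0.08.

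Proteasome subunits differed by small amounts, most of them positive. Of 42 measured, 34 were higher with celastrol (81.0%, median 0.034), where 65.3% of all bright probe sets were higher and 39 of the 42 are bright; 3 higher and 1 lower had an unadjusted p under 0.05, and 0 passed in limma. After a further quantile normalization 29 were higher. Psmd10, an assembly chaperone of the regulatory particle, read 9.88, 10.01, 9.87 and 9.87 with DMSO and 10.05, 10.08, 10.06 and 10.02 with celastrol, without overlap (0.14 ± 0.06). Psmd6, a subunit of that particle, differed by 0.15 ± 0.06. Psmb10, a catalytic subunit of the immunoproteasome, was the 1 on the lower side at that p (-0.12 ± 0.06).

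Genes answering to glucocorticoids and fasting were more often higher than lower, as were bright probe sets in general. Pdk4, which spares glucose by inhibiting pyruvate dehydrogenase, read 8.73, 8.86, 8.86 and 8.63 with DMSO and 8.92, 8.97, 9.12 and 9.04 with celastrol, without overlap (0.24 ± 0.08). Sgk1, a kinase induced by glucocorticoids, read 9.94, 10.07, 10.07 and 9.88 with DMSO and 9.18, 9.50, 9.59 and 10.16 with celastrol, so 3 celastrol arrays were below all DMSO arrays and replicate 4 above them (-0.38 ± 0.20, limma adjusted p 0.998). Without celastrol replicate 1 the Sgk1 difference was -0.24, and without replicate 4 it was -0.57. Ddit4, an inhibitor of mTORC1, was lower as well (-0.18 ± 0.08). Other glucocorticoid targets lay on both sides of 0, with more above it than below. The leucine zipper gene Tsc22d3 and the glycerol-phosphate dehydrogenase gene Gpd1 each differed by 0.15 and the co-chaperone gene Fkbp5 by 0.19 (unadjusted p 0.139 in limma), while the clock gene Per1 differed by -0.06, Klf9 by -0.01, the metallothionein gene Mt2 by -0.02 and Arrdc2 by -0.11. Of 29 genes on the glucocorticoid list, 25 of them bright, 20 were higher (69.0%, median 0.065), against 65.3% of all bright probe sets. At an unadjusted p under 0.05 in limma were 6 higher, among them Lcn2, Plin4 and Pdk4, and 1 lower, Ddit4. Such a p was found in 3.93% of all probe sets, and 0 of the list passed. Celastrol replicate 1 had the lowest summed linear level on this list, 55600, against 63200 to 64300 in the other celastrol arrays and 58200 to 61500 with DMSO. Such a sum rests mostly on the brightest members. Centred on the DMSO means, the list's median was -0.077 in celastrol replicate 1, the same as in DMSO replicate 4. It was 0.025 to 0.146 in the other celastrol arrays. In celastrol replicate 1 Fkbp5 (8.45) and the transcription factor gene Zbtb16 (10.33) lay below every DMSO array, and in the other 3 celastrol arrays above every DMSO array. Both were picked after the values were seen, and not all members did so. In Pdk4 celastrol replicate 1 (8.92) lay above every DMSO array. On the fasting and fatty acid oxidation list, which shares Pdk4 and Plin4, 19 of 26 were higher (median 0.053, and 0.023 without celastrol replicate 3), with 3 at an unadjusted p under 0.05, the last being the dehydrogenase Acadl (0.12 ± 0.05).

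Immediate early genes, which record recent neuronal activity, were mixed. Nr4a2 differed by 0.27 and Klf6 by 0.16 ± 0.05, while Ier2 (-0.27 ± 0.08) and Trib1 (-0.20 ± 0.07) were on the other side, and these 4 of 31 had an unadjusted p under 0.05. Ier2 read 7.12, 7.15, 6.98 and 7.19 with DMSO and 6.75, 6.99, 6.77 and 6.86 with celastrol, with an overlap of 1 array. Fos differed by 0.00, Arc by 0.07 and Nr4a1 by -0.12 ± 0.08. Of the 31, 21 were higher (median 0.054, and 0.021 without DMSO replicate 2). Clock genes (13 of 21 higher, median 0.016, -0.009 after a further quantile normalization) had Bhlhe40, a repressor of the clock, at 0.18 ± 0.06. Oxidative phosphorylation subunits (36 of 55, median 0.019, -0.002 after that normalization and -0.009 without DMSO replicate 1), sterol and fatty acid synthesis (18 of 26, median 0.021, and 0.001 without celastrol replicate 3) and interferon-stimulated genes (20 of 31, median 0.023, and -0.004 without celastrol replicate 2) had no member at an unadjusted p under 0.05 in limma, and 0 passed.

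**Figure D4:**
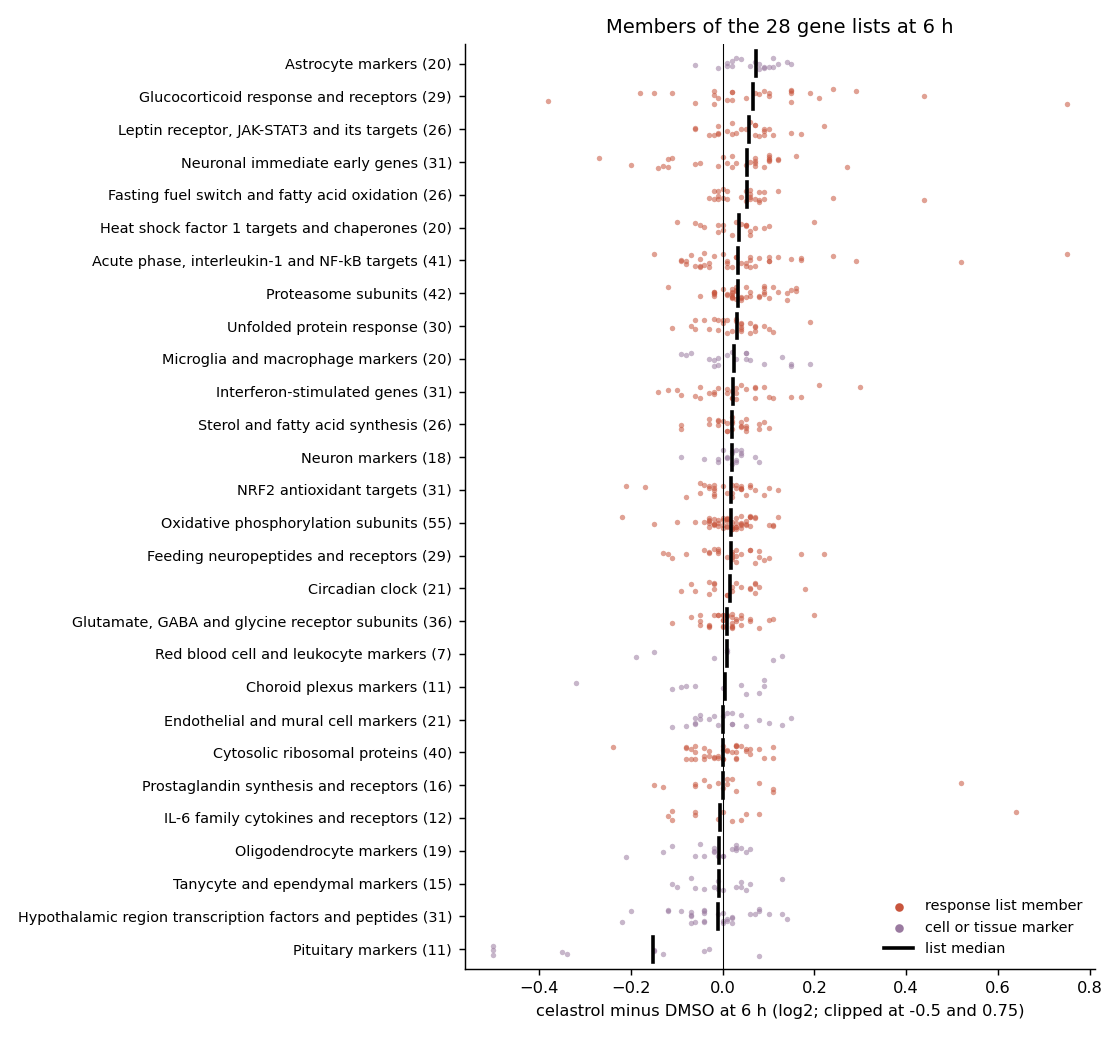
Difference between celastrol and DMSO at 6 h (log2) for each measured member of 28 gene lists, with the number of members in parentheses; red points belong to response lists, purple points to cell or tissue markers, and black bars are list medians; points are clipped at -0.5 and 0.75. Medians run from -0.152 for pituitary markers to 0.073 for astrocyte markers, and 1 of the 28 lies more than 0.1 from 0.

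Of the astrocyte markers most were slightly higher. Of 20 measured, 18 were higher with celastrol (90.0%, median 0.073), against 65.3% of all bright probe sets, and all 20 are bright; 3 had an unadjusted p under 0.05 and 0 passed in limma. After a further quantile normalization 16 were higher and the median was 0.049, below that of the glucocorticoid list (0.067); after median centring 16 were higher (median 0.061). Centred on the DMSO means, the markers' median was 0.131 in celastrol replicate 3 and 0.031 to 0.069 in the other celastrol arrays, and the list's median was 0.043 without replicate 3. Hepacam, an adhesion molecule of astrocyte junctions, read 10.93, 11, 10.97 and 10.89 with DMSO and 11.07, 11.10, 11.15 and 11.07 with celastrol, without overlap (0.15 ± 0.04, 95% interval 0.07 to 0.24). Its partner Mlc1 also did not overlap (0.12 ± 0.05), and the glutamate transporter Slc1a3 overlapped (0.11 ± 0.05), while Gfap differed by -0.01. The summed linear level of the 20 markers ranged from 60100 to 62300 with DMSO and from 62000 to 67400 with celastrol. More astrocyte RNA per cell and more astrocytes in a sample cannot be told apart in bulk tissue.

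Markers of other cell types had medians closer to 0. Of 20 microglia and macrophage markers 12 were higher (median 0.024, 0.009 after a further quantile normalization and -0.014 without celastrol replicate 1). The smallest p were those of the complement genes C1qa (0.19 ± 0.06), C1qc (0.15 ± 0.07) and C1qb (0.13 ± 0.07). C1qc read 9.76 in DMSO replicate 2 against 10.20 to 10.24 in the other DMSO arrays. Leaving out 1 array brought its difference as low as 0.041. C1qa read 8.77, 8.85, 8.78 and 8.74 with DMSO and 9.05, 9.05, 8.99 and 8.82 with celastrol, where only celastrol replicate 4 fell inside the DMSO range. Oligodendrocyte markers were higher in 7 of 19 (median -0.008), with Opalin, a membrane protein of myelinating cells, at -0.21 ± 0.08. Neuron markers, all bright, were higher in 13 of 18 (72.2%, median 0.020), against 65.3% of all bright probe sets. Tanycyte and ependymal markers were higher in 6 of 15 (median -0.009), and endothelial and mural markers in 11 of 21 (median 0.001, and -0.008 after a further quantile normalization). The dopamine transporter gene Slc6a3 spread from 8.50 to 10.79 with DMSO and from 9.43 to 11 with celastrol, and its difference of 0.54 ± 0.38 had an unadjusted p of 0.176 in limma.

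The genes with the smallest unadjusted p had small differences and tight replicates. On the higher side were Klhl38, a kelch protein (0.26 ± 0.06, unadjusted p 0.000173 in limma), Idh1, the cytosolic isocitrate dehydrogenase that supplies NADPH (0.32 ± 0.08), Vps26c, of the endosomal retriever complex (0.25 ± 0.06), Park7, the oxidation sensor DJ-1 (0.23 ± 0.06), Glra3, the glycine receptor alpha 3 subunit (0.20 ± 0.05), and Uprt (0.19 ± 0.05). Idh1 read 10.51, 10.77, 10.54 and 10.75 with DMSO and 11.12, 10.86, 10.97 and 10.91 with celastrol. Park7 read 11.64, 11.78, 11.84 and 11.68 against 11.84, 11.96, 12.06 and 12.02. The groups did not overlap in either gene, although the highest DMSO array and the lowest celastrol array of Park7 both read 11.84. Srarp, Ipcef1 and Daw1 completed the 10 with Osmr. Klhl38, Srarp, Ipcef1 and Daw1 were dim in every array, and Osmr exceeded the array median in 3 of 22. On the lower side all but Acr were dim in every array: Tex35 (-0.30 ± 0.07), Krtap13 (-0.20 ± 0.05), Fcrla (-0.22 ± 0.06), the growth factor Gdf7 (-0.23 ± 0.06), Adgrf2 (-0.23 ± 0.07), Prl5a1 (-0.22 ± 0.06), Xkrx (-0.22 ± 0.06), Acr (-0.26 ± 0.08), Slc16a4 (-0.22 ± 0.06) and Prss57 (-0.25 ± 0.07). The potassium channel gene Kcnj14 (-0.40 ± 0.17) was named for its size of difference after Gh, Prl and Cga. Each had an adjusted p of 0.998 in limma.

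The differences at 6 h were then set against those at 1 day and 4 days, which rest on other mice with their own DMSO groups. No gene's difference changed between times past the test: in limma 0 of 20228 probe sets (0.0%) had an adjusted p under 0.05 for 6 h against 1 day (lowest 0.752; 1331 at an unadjusted p under 0.05) and 0 (0.0%) for 6 h against 4 days (lowest 0.573; 735 unadjusted). Over all probe sets the 6 h differences correlated with those at 1 day at Pearson r = -0.108 and with those at 4 days at 0.0152; 42.8% and 51.5% had the same sign. Over the 10575 bright probe sets r was 0.0084 for 1 day and 0.0263 for 4 days, so Pearson's r at 1 day was no longer negative, while Spearman's rho there was -0.111 and 42.6% had the same sign. These correlations are across probe sets, which are not independent replicates.

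Osmr and Ptgs2 had positive differences at every time, none of which passed: Osmr by 0.64 ± 0.17, 0.97 ± 0.18 and 0.71 ± 0.18 and Ptgs2 by 0.52 ± 0.16, 0.80 ± 0.17 and 0.96 ± 0.17 at 6 h, 1 day and 4 days. Lcn2 likewise stood at 1.29 ± 0.58, 1.80 ± 0.62 and 1.96 ± 0.62. The 6 h difference minus the 4 day difference was -0.07 ± 0.25 for Osmr, -0.44 ± 0.24 for Ptgs2 and -0.66 ± 0.85 for Lcn2, and none passed in limma (adjusted p 0.999 for each). Ch25h stood at 0.24 ± 0.11 at 6 h, 0.84 ± 0.12 at 1 day (adjusted p 0.0129) and 0.95 ± 0.12 at 4 days (adjusted p 0.00186), so in this fit over dim and bright probe sets it passed at both later times and not at 6 h; the difference between 6 h and 4 days, -0.71 ± 0.16, did not pass (adjusted p 0.754).

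Some genes had opposite signs early and late. Sgk1 stood at -0.38 ± 0.20 at 6 h, 0.54 ± 0.22 at 1 day and 0.84 ± 0.22 at 4 days. Nfkbia stood at -0.15 ± 0.09, 0.36 ± 0.09 and 0.40 ± 0.09, and Ddit4 at -0.18 ± 0.08, 0.26 ± 0.09 and 0.45 ± 0.09. All 3 are on the glucocorticoid list, but that list's median was positive at each time (0.065, 0.156 and 0.114). Its members Pdk4, Plin4 and Lcn2 had positive differences at all 3 times. For 6 h against 4 days the change in the difference was -1.22 ± 0.29 for Sgk1 (adjusted p 0.754), -0.55 ± 0.13 for Nfkbia (0.754) and -0.63 ± 0.12 for Ddit4 (0.573), and none passed in limma. The value for Ddit4 was the lowest adjusted p of that contrast, shared with Wee2, a gene dim in every array. In others the 6 h difference was the most positive of the 3 times, with no change between times that passed: Idh1 (0.32 ± 0.08, then -0.13 ± 0.09 and -0.19 ± 0.09), Park7 (0.23 ± 0.06, -0.10 ± 0.07, 0.10 ± 0.07) and Psmd10 (0.14 ± 0.06, -0.20 ± 0.06, 0.05 ± 0.06). The proteasome median was 0.034 at 6 h, -0.070 at 1 day and 0.030 at 4 days, and the astrocyte median 0.073, 0.015 and -0.019.

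Further genes followed when ranked by the unadjusted p of these changes. Against 1 day the differences at 6 h were more positive in St6galnac1, Dach2, Syce2 and the zinc finger gene Zfp622 beside Psmd10, and more negative in Akr1c18, Krtap13, Pi4k2b and the matrix protease Adamts9 beside Nfkbia. Against 4 days they were more positive in Mtmr6, Ndnf and the helix-loop-helix regulator Id2 beside Idh1 and Daw1, and more negative in Wee2 and Tmem45a beside Ddit4, Ch25h and Nfkbia. Of these changes that of Mtmr6, a phosphoinositide phosphatase, was the smallest in size (0.26 ± 0.06). Its difference was 0.12 ± 0.04 at 6 h, without overlap between groups, and -0.14 ± 0.04 at 4 days. The change was 0.51 ± 0.11 in St6galnac1. In Adamts9 and Id2 (0.01 ± 0.05 each) and Ndnf (0.03 ± 0.07) the 6 h difference itself was smaller than its SE. None of these changes between times passed in limma. For Adamts9, 3 of its 5 other probe sets had the opposite sign at 6 h.

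**Figure D5:**
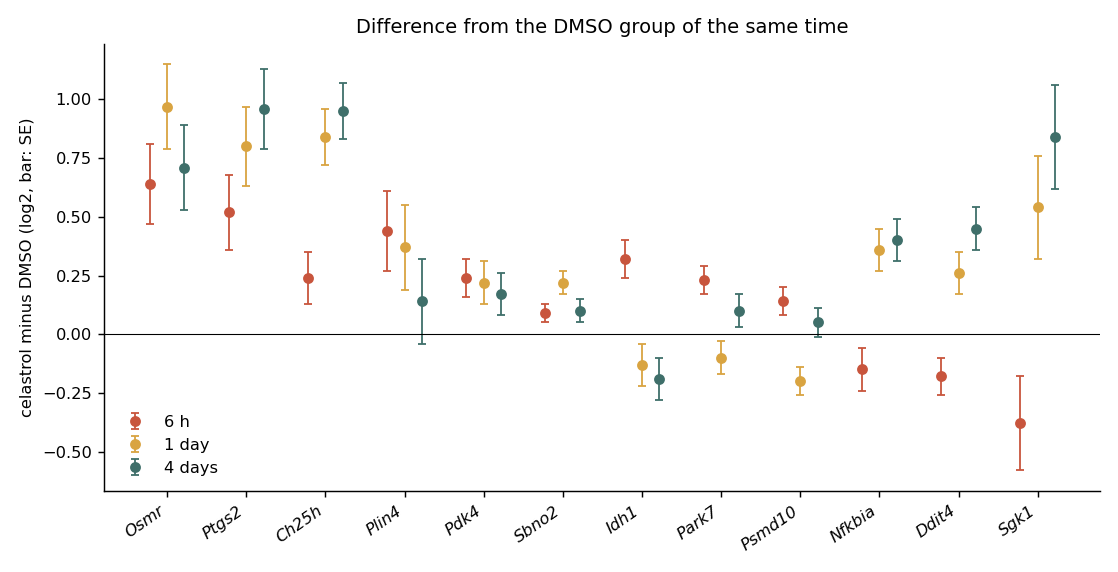
Difference between celastrol and the DMSO group of the same time (log2, point) with its standard error (bar) for 12 genes at 6 h, 1 day and 4 days. Osmr and Ptgs2 lie above 0 at each time, Ch25h is higher at the later times, and Nfkbia, Ddit4 and Sgk1 lie below 0 at 6 h and above it later.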

How the data were processed

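The values analysed are log2 signals as deposited. Per the submitters' processing notes they come from RMA (background correction, quantile normalization, summary of probes), whose version the sources used here do not give. RNA was extracted with Trizol and labelled by a whole-transcript kit, per the labels. Symbols came from the platform annotation: 20228 of 23492 probe sets had 1, 1399 several and 1865 none. A gene with several probe sets is described by the one with the highest mean.

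One limma 3.58.1 model (in R 4.3.3, with 16 residual degrees of freedom and 4.66 prior ones) covered 22 arrays, with Benjamini-Hochberg adjustment over all 20228 probe sets and no level filter. P-values are two-sided, and SE are the model's. Exact permutation tests exchanged the labels of the 8 arrays at 6 h. The precision is limited by the number of arrays. The fit was tested on simulated data. The members, the 28 gene lists (18 responses, 10 markers) and the tests were chosen with earlier results of these data known.

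Named were, on each side, the 10 genes with the smallest p and the 5 with the largest difference, 5 on each side for each change between times, up to 3 genes of each list by p, and 23 genes always named, of which 20 were measured. Further list members, Lhb and Tshb were named after their values were seen, and predicted, olfactory, vomeronasal and non-coding genes were not named. Promoter windows came from RefSeq (GRCm38.p6), with an entry for 109 of 132 named genes; the promoters shown were chosen after the values were seen. Same-numbered arrays of the groups deviated from their group means with correlations of 0.102, 0.0459, 0.391 and -0.0185, so the numbers were not taken to pair them. Alternatives were level filters, probe set rules, scalings, limma settings, only the 6 h arrays, a replicate block, a residual component and leaving out each array.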

Additional observations from a re-analysis of the deposited data

Results flagged for a closer look

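Among 264 gene-by-group sets of 4 arrays at 6 h (132 named genes), 15 had 1 array far from the other 3 (the gap to the nearest array, over the range, past Dixon's 95% critical value); chance alone gives about 1 in 20 sets. Celastrol replicate 1 stood apart in Trib1 (7.41), Slc2a1, the glucose transporter of vessels (12.22), S100a9 (6.98) and Tmem45a (6.51). Celastrol replicate 2 did so in Socs3 (8.07). Celastrol replicate 3 did so in Vps26c (10.15), Csnk1d (11.14) and the water channel Aqp1 (7.31). Celastrol replicate 4 did so in Avp, vasopressin (10.58, where the other 3 read 11.47 to 11.55), and Npy5r (7.63). DMSO replicate 1 did so in Lcn2 (6.67) and Akr1c18 (5.70), and DMSO replicate 2 in C1qc (9.76), Slc1a3 (12.40) and Psmd10 (10.01).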

How the results depend on the processing

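Under the 22 alternatives limma called 0 probe sets at 6 h (lowest adjusted p between 0.263, without celastrol replicate 1, and 1.0). It called 0 for either change between times under the alternatives run for them, all but the fits to the 8 arrays at 6 h. The replicate block likewise gave 0 (lowest adjusted p 0.791 over the 8 arrays and 0.998 over 22), with 1 of 4 same-numbered pairs correlated above 0.2, and changed no call. At an unadjusted p under 0.05 the higher count ranged from 256 to 754 and the lower from 93 to 734. Leaving out 1 array gave from 432 to 915 probe sets with all celastrol arrays above DMSO and from 395 to 777 below, partly because fewer arrays separate more easily. With level filters the lower count was 56 (3 arrays) and 52 (11 arrays), 0.53% and 0.514% of the probe sets tested against 1.17%, while the higher share was 2.18% and 2.24% against 1.48%; the cause was not tested. Of 2796 named gene and setting pairs 23 reversed in 12 genes, none called, and the cause was not tested. Array weights gave 0.025 for Lepr and -0.020 for Cartpt, and a further quantile normalization -0.0017 for Adamts9 and -0.0013 for Id2. Leaving out 1 array turned Lepr (-0.12 to 0.073), Cartpt (-0.033 to 0.12), Npy (-0.061 to 0.13), Pomc (-0.2 to 0.0087), Ptpn1 (-0.092 to 0.051), Ddit3 (-0.068 to 0.009), Ttr (-0.0083 to 0.086), Cga (-1.4 to 0.052), Avp (-0.31 to 0.015), Ndnf (-0.03 to 0.095), Adamts9 (-0.0092 to 0.046) and Id2 (-0.016 to 0.044).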
